A study of Homo sapiens with 6 samples.

Results

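The nuclear pore is the channel through the nuclear envelope, and a set of soluble carriers moves proteins and RNA through it. Genes for these parts were taken from the expression table by symbol: rows naming a single gene whose symbol starts with NUP, XPO, IPO, KPN, RANBP, RANGAP, NXT, NXF, THOC or TNPO, with NUPR genes left out. This gave 29 genes of the 6339 rows, and all 29 were among the 6230 rows tested, those whose mean reached 1 FPKM with DMSO or with AI-10-49. FPKM are fragments per kilobase of transcript, scaled to the mapped fragments of the library, so levels of different genes are compared per length.

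The cells were ME-1, a human leukaemia line with inv(16), the inversion that joins CBFB to MYH11 and yields the fusion protein CBFβ-SMMHC. All groups are this single line, which carries the fusion in both treatments. Cultures received AI-10-49, a small molecule designed to keep CBFβ-SMMHC off RUNX1, at 1 µM for 6 h, or the solvent DMSO for 6 h. Each treatment had 3 libraries, which the labels call independent experiments.

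The pore is built of nucleoporins, arranged as outer and inner rings, a membrane ring, a central channel lined with flexible repeats, a cytoplasmic face and a nuclear basket. Importins and transportins carry cargo in and exportins carry it out, and the small GTPase Ran, kept in its GTP form inside the nucleus, sets the direction. mRNA leaves by a separate route, through the THO complex and the NXF1-NXT1 receptor. Pore and carrier genes are widely expressed, and NUP98 is a known partner in leukaemia gene fusions.

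With AI-10-49, 18 of the 29 genes fell and 11 rose, and every role with more than 3 measured genes split in both directions. The falls reached further than the rises: NUP210, RANBP1, XPO5 and NXT1 were each more than 2-fold lower, as was TNPO2, while the tRNA exporter XPOT and the scaffold gene RANBP9 rose most. Each member was past an adjusted p of 0.05 (limma, Benjamini-Hochberg over all tested rows), and its 3 DMSO and 3 AI-10-49 values did not overlap. The deposited rows were selected, and 95.3% of all tested rows passed the same threshold, 46.2% higher and 49.1% lower, while the groups did not overlap in 96.2%. A full count among the members is therefore near what any rows of this table show. By direction, 62.1% of the members were lower and 37.9% higher. Their median log2 fold change was -0.43, against -0.28 over all tested rows, and the median size of change, regardless of sign, was 0.55 against 0.56.

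**Figure D1:**
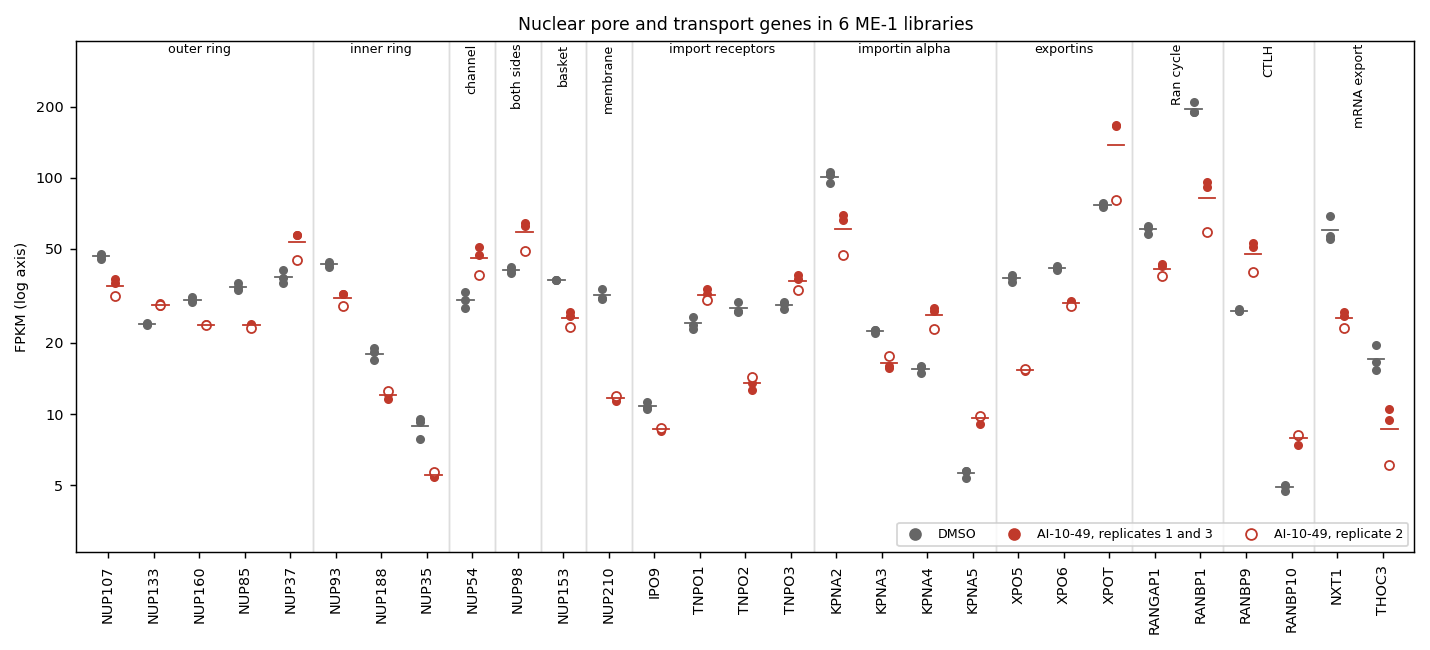
FPKM (vertical log axis) of the 29 genes in each library, with DMSO in grey, AI-10-49 in red and AI-10-49 replicate 2 as open circles, horizontal lines at group means and genes ordered by role. RANBP1 and KPNA2 lead in DMSO at means of 196 and 101 FPKM, and XPOT leads with AI-10-49 at 138 FPKM, where its open circle of 80.6 FPKM lies far below the other values of 166 and 167 FPKM.

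AI-10-49 replicate 2 stood apart from the other libraries. Its highest value in the table was 159 FPKM, against 1843 and 1877 FPKM in AI-10-49 replicates 1 and 3. Its median was 14.7 FPKM, against 14.4 FPKM in each of those. In rows whose mean of AI-10-49 replicates 1 and 3 was at least 40 FPKM, it was the lowest of the 3 AI-10-49 libraries in 1204 of 1207 rows, with a median of 0.717 times that mean. DMSO replicate 2 gave a median of 0.945 in the same range. Among the members it was the lowest in all 8 at or above 40 FPKM and in 10 of 11 between 20 and 40 FPKM, and its ratio to replicates 1 and 3 fell to 0.484 in XPOT, 0.625 in RANBP1 and 0.693 in KPNA2. THOC3, at 0.613, was low in it at a level where other members were not. Without that library 11 members still passed as higher and 18 as lower, against 97.4% of all rows passed. Leaving it out moved the log2 fold change of XPOT, RANBP1, THOC3 and KPNA2 by 0.17 to 0.34 and that of every other member by at most 0.13, as the plot of changes by role shows.

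**Figure D2:**
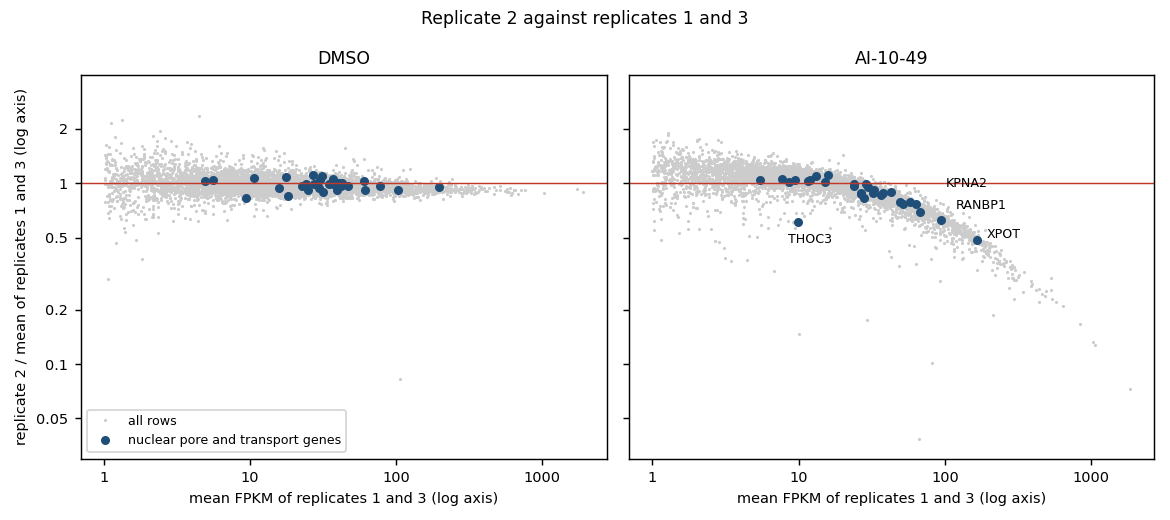
FPKM of replicate 2 divided by the mean of replicates 1 and 3 (vertical log axis) against that mean (horizontal log axis), in DMSO at left and with AI-10-49 at right, the 29 genes in blue, all rows of at least 1 FPKM drawn in grey and equal values as a red line. In DMSO the genes lie along the line. With AI-10-49 they bend below it as levels rise, to 0.484 in XPOT, and THOC3 lies below the other genes of its level.

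The line's identity was checked with 16 myeloid marker genes. Of these, 10 had a row, among them SPI1, CEBPA and KIT and the eosinophil genes PRG2 and CLC, and their summed level was 733 to 840 FPKM with DMSO and 253 to 359 FPKM with AI-10-49. MPO, CD34, CEBPE, CD14, CD68 and ITGAM were not analysed here. The B cell genes CD79A and CD79B (2 of 4 on their list) summed to 24.8 to 30.0 FPKM with DMSO and 8.72 to 10.6 FPKM with AI-10-49, and the T cell genes CD3D and CD3E (2 of 3) to 32.6 to 34.3 and 16.9 to 17.2 FPKM. These sums cover unlike numbers of genes. With DMSO the means of CD33, ELANE, PRTN3 and LYZ were 8.41, 2.05, 1.06 and 15.6 FPKM. Each lay below CD79B at 24.5 FPKM and CD3D at 32.2 FPKM, while the other myeloid markers with a row lay above both. PECAM1, of 4 fibroblast and endothelial markers, lay between 2.98 and 6.63 FPKM, and the epithelial and erythroid markers were not analysed here. SPI1 did not pass (log2 fold change -0.47 ± 0.30 SE, limma adjusted p = 0.142). Without AI-10-49 replicate 2 SPI1 changed by -0.18 (adjusted p = 0.0268). Over 15 alternative settings SPI1 lay between -0.63 and 0.08 and did not pass in 14, among them quantile normalization with or without that library. The other myeloid markers with a row fell. Whether the fall of the myeloid markers bears on the genes below was not tested. In such bulk libraries fewer cells of a type and less RNA per cell cannot be told apart.

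The outer ring, or Y complex, coats the pore on both faces of the envelope, and 5 of its 6 listed genes had a row. The list follows the symbol rule, so pore genes with other names, SEH1L and AHCTF1 among them, come later. NUP107, NUP160 and NUP85 fell while NUP133 and NUP37 rose. NUP107 read 47.4, 45.3 and 46.9 FPKM in the DMSO libraries and 36.0, 31.7 and 37.3 FPKM with AI-10-49. NUP160 went from 30.4, 31.3 and 29.7 FPKM to 24.1, 23.7 and 23.8 FPKM. NUP85 went from 33.5, 34.4 and 35.9 FPKM to 24.1, 23.2 and 23.9 FPKM. In all 3 genes the AI-10-49 values sat below every DMSO value, with log2 fold changes of -0.40 ± 0.09 (SE), -0.34 ± 0.06 and -0.52 ± 0.07 (adjusted p = 0.00076, 0.000304 and 1.07e-05). NUP133, whose protein binds NUP107 at the tip of the Y, read 24.3, 23.9 and 23.9 FPKM with DMSO and 28.5, 28.9 and 29.6 FPKM with AI-10-49. Its rise was the smallest change of the 29 genes (0.26 ± 0.06, adjusted p = 0.00175) but larger than the spread, since the DMSO values differ by less than 1 FPKM. NUP37, a small subunit that docks on NUP160, rose from 37.7, 35.8 and 40.7 FPKM to 57.4, 45.0 and 57.4 FPKM (0.47 ± 0.11, adjusted p = 0.00134), with replicate 2 the lowest AI-10-49 value. It changed by 0.58 ± 0.06 without that library.

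Genes whose proteins touch thus moved apart within the same libraries. The NUP133 to NUP107 ratio of FPKM was 0.512, 0.529 and 0.511 in DMSO and 0.793, 0.912 and 0.795 with AI-10-49. The NUP37 to NUP160 ratio was 1.24, 1.14 and 1.37 in DMSO and 2.38, 1.90 and 2.41 with AI-10-49. Every AI-10-49 ratio exceeded every DMSO ratio in both pairs. This had to follow, because the first-named gene rose and the second fell, each without overlap. These are 2 of 7 ratios, all of such pairs, that were picked after their values were seen. For each of the 7 an exact two-sided permutation test gave p = 0.1, the smallest that 3 against 3 libraries can give. It was 0.1 after Benjamini-Hochberg adjustment over them. That outcome was fixed by the choice of pairs and is no further evidence.

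The inner ring encircles the channel at the level of the envelope, and all 3 of its genes with a row (of 5 listed) fell. NUP93, a scaffold that holds the ring together, went from 41.8, 43.0 and 44.1 FPKM to 32.3, 28.7 and 32.3 FPKM (log2 fold change -0.46 ± 0.08 SE, adjusted p = 0.000153). NUP188, a large ring subunit that binds NUP93, went from 18.2, 19.0 and 16.9 FPKM to 12.2, 12.5 and 11.6 FPKM (-0.54 ± 0.07, adjusted p = 5.98e-06). NUP35, a linker that also binds membrane and had the lowest level of the measured nucleoporin genes, went from 9.52, 7.82 and 9.27 FPKM to 5.42, 5.68 and 5.45 FPKM (-0.60 ± 0.08, adjusted p = 1.36e-05). The 3 falls were of like size, between 1.38-fold and 1.61-fold on mean FPKM.

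NUP210, a membrane-spanning nucleoporin, showed the largest fall of the 29 genes. Its level was 31.0, 33.9 and 30.8 FPKM with DMSO and 11.9, 11.9 and 11.3 FPKM with AI-10-49. The AI-10-49 libraries lay within 1 FPKM of each other, replicate 2 included, and 2.72-fold below the DMSO mean (log2 fold change -1.37 ± 0.06 SE, adjusted p = 1.44e-09; mean ± SD 31.9 ± 1.75 against 11.7 ± 0.335 FPKM, n = 3). In the order of levels over the 29 genes it dropped from place 14 or 15 in each DMSO library to place 24 in each AI-10-49 library. A reference annotation (GENCODE v29) names 3 pseudogene copies of NUP210, and how reads shared with such copies were assigned is not known.

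The repeat-bearing nucleoporins of the channel and basket went both ways. NUP54, which lines the central channel, rose from 30.3, 28.2 and 33 FPKM to 47.0, 38.7 and 51.1 FPKM (log2 fold change 0.56 ± 0.11 SE, adjusted p = 0.000265). NUP98, found on both faces of the pore and free in the nucleus, rose from 41.8, 40.9 and 39.7 FPKM to 62.8, 48.9 and 64.3 FPKM (0.50 ± 0.11, adjusted p = 0.00101). The same gene encodes NUP96, an outer ring subunit cut from a shared precursor, and a value per gene does not tell these products apart. In both genes replicate 2 gave the lowest AI-10-49 value, still above every DMSO value, and without it the changes were 0.67 and 0.63. NUP153, of the nuclear basket, fell from 37.0, 36.8 and 36.9 FPKM to 27.2, 23.4 and 26.1 FPKM (-0.52 ± 0.08, adjusted p = 3.28e-05; -0.46 without replicate 2). Its DMSO libraries agreed within an SD of 0.116 FPKM, the tightest of the set.

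Over the 24 nucleoporin genes on the role lists, 12 had a row of their own, of which 8 fell and 4 rose. Their summed level was 383, 380.4 and 388 FPKM with DMSO and 369, 322 and 374 FPKM with AI-10-49. The sum moved little while its genes went in both directions, and it covers these 12 genes only. The groups did not overlap (exact two-sided permutation p = 0.1, the smallest possible), and the largest gap was again in replicate 2. None of the 4 listed genes of the cytoplasmic face (NUP214, NUP88, RANBP2 and NUPL2) had a row of its own. NUP62, of the central channel, shares its row with IL4I1, whose gene it neighbours. That row, which the symbol rule leaves out, stood at 39.5 ± 1.54 and 27.7 ± 1.94 FPKM (SD, n = 3), and the share of each gene is unknown.

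**Figure D3:**
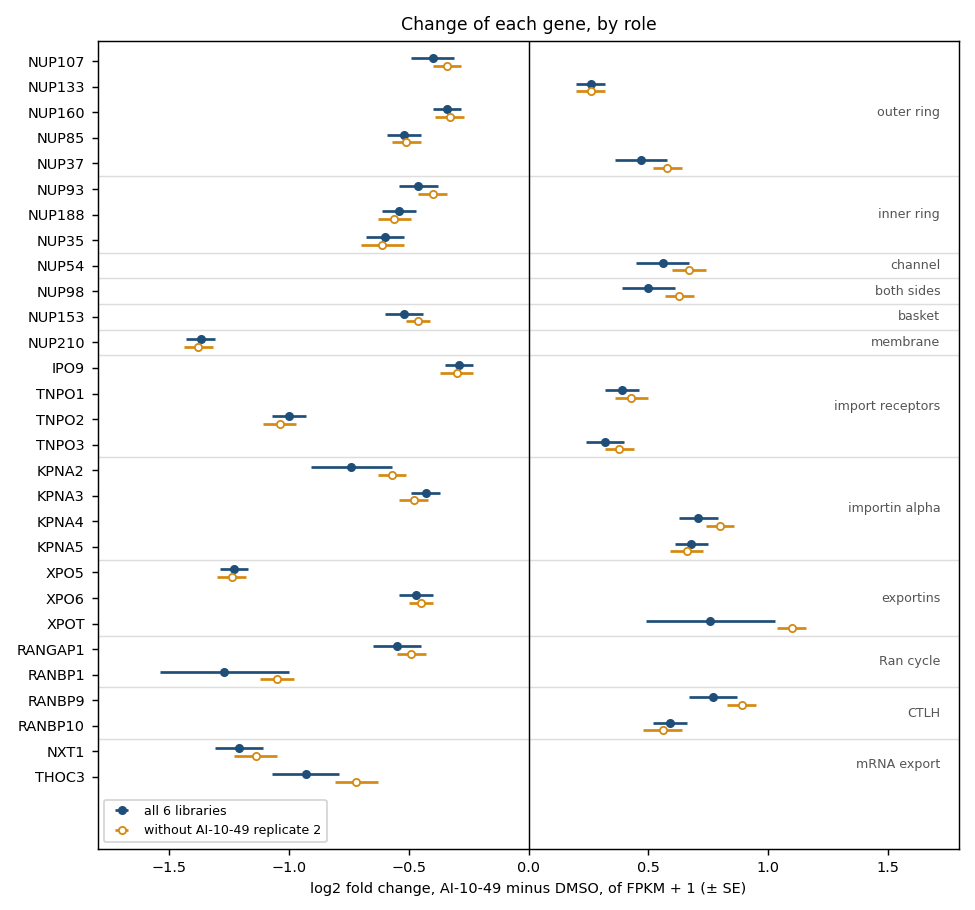
Log2 fold change (horizontal axis, AI-10-49 minus DMSO, FPKM + 1, bars ± SE) of the 29 genes by role, from all 6 libraries (filled blue) and without AI-10-49 replicate 2 (open orange). NUP210 (-1.37) and XPO5 (-1.23) keep their place without that library, while XPOT moves from 0.76 to 1.10, RANBP1 from -1.27 to -1.05 and THOC3 from -0.93 to -0.72.

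Importin alpha proteins recognise the classical nuclear localisation signal and hand the cargo to importin beta, and 4 of the 7 genes had a row of their own. KPNA2 and KPNA3 fell, and KPNA4 and KPNA5 rose. KPNA2, the most abundant of them and a gene of dividing cells, read 102, 95.5 and 106 FPKM with DMSO and 66.3, 47.0 and 69.3 FPKM with AI-10-49 (log2 fold change -0.74 ± 0.17 SE, adjusted p = 0.00111). Its AI-10-49 spread came mostly from replicate 2, and without that library the change was -0.57 ± 0.06. Under quantile normalization the change was -0.36 (adjusted p = 6.24e-05). KPNA2 has 3 annotated pseudogene copies.

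KPNA3 and KPNA4 are close relatives of the same importin alpha subfamily and moved in opposite directions. KPNA3 fell from 22.7, 22.0 and 22.7 FPKM to 16.0, 17.6 and 15.7 FPKM (log2 fold change -0.43 ± 0.06 SE, adjusted p = 4.26e-05). KPNA4 rose from 15.9, 15 and 15.8 FPKM to 27.3, 22.9 and 28.2 FPKM (0.71 ± 0.08, adjusted p = 3.05e-06; 0.80 without replicate 2). The order of the pair reversed: KPNA4 stood at 0.701, 0.680 and 0.697 times KPNA3 in the DMSO libraries and at 1.71, 1.30 and 1.8 times KPNA3 with AI-10-49, a log2 change of the ratio of 1.20. KPNA5, of another subfamily and the lowest of the 4, rose from 5.35, 5.77 and 5.76 FPKM to 9.09, 9.84 and 9.86 FPKM (0.68 ± 0.07, adjusted p = 1.24e-06). Its ratio to KPNA2 went from 0.0557 ± 0.00426 to 0.163 ± 0.0404 (SD, n = 3).

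Both the sum and the make-up of the importin alpha transcripts shifted. The 4 genes together gave 146, 138 and 150.1 FPKM with DMSO and 119, 97.3 and 123 FPKM with AI-10-49 (exact permutation p = 0.1, groups not overlapping). Of that sum KPNA2 made up 69.8% ± 0.724 (SD, n = 3) with DMSO and 53.5% ± 4.52 with AI-10-49. The KPNA4 share rose from 10.7% ± 0.187 to 23.2% ± 0.337 and was as high in replicate 2 (23.6%) as in replicates 1 and 3 (23.0% and 22.9%). The KPNA3 share was 15.5% ± 0.408 and 14.8% ± 2.88, which differ by less than the AI-10-49 spread. KPNA1, KPNA6 and KPNA7 had no row of their own, so these are shares of the 4 genes only.

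**Figure D4:**
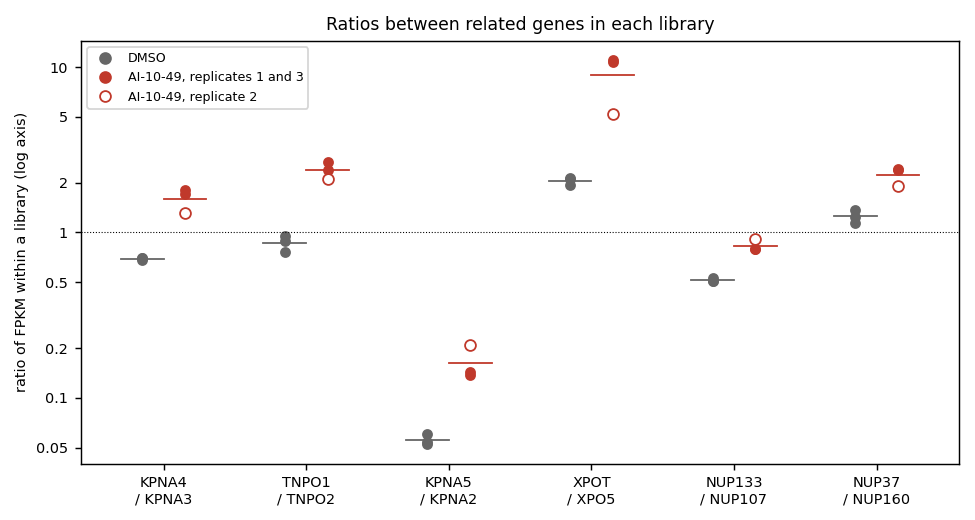
Ratio of FPKM between 6 pairs of related genes within each library (vertical log axis), with DMSO in grey, AI-10-49 in red, replicate 2 as open circles, group means as lines and equal levels as a dotted line. KPNA4 passes KPNA3 (0.693 to 1.60) and TNPO1 passes TNPO2 (0.867 to 2.38). In each pair all AI-10-49 ratios lie above all DMSO ratios, which had to follow, as the first gene rose and the second fell without overlap.

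The transportins carry RNA-binding proteins into the nucleus without an adaptor. TNPO1 and TNPO2 are close paralogs, and TNPO3 carries serine- and arginine-rich splicing factors. TNPO2 fell from 27.2, 29.9 and 27.0 FPKM to 13.5, 14.4 and 12.7 FPKM (log2 fold change -1.0 ± 0.07 SE, adjusted p = 4.59e-08). TNPO1 rose from 25.9, 22.9 and 23.9 FPKM to 32.2, 30.3 and 33.7 FPKM (0.39 ± 0.07, adjusted p = 0.000285). TNPO3 rose from 29.2, 27.9 and 29.9 FPKM to 38.8, 33.6 and 37.2 FPKM (0.32 ± 0.08, adjusted p = 0.00168). The levels of the 3 genes were close together with DMSO, and with AI-10-49 TNPO2 stood alone at the bottom. TNPO1 was 0.950, 0.763 and 0.887 times TNPO2 in DMSO and 2.39, 2.1 and 2.66 times TNPO2 with AI-10-49. The TNPO3 to TNPO2 ratio went from 1.04 ± 0.0938 to 2.71 ± 0.330 (SD, n = 3).

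Over all libraries their sum did not move beyond its spread: 82.3, 80.7 and 80.7 FPKM with DMSO and 84.4, 78.3 and 83.7 FPKM with AI-10-49 (exact permutation p = 0.8). The overlap came from replicate 2, while AI-10-49 replicates 1 and 3 lay above every DMSO sum. Within the sum the TNPO2 share went from 34.5% ± 2.25 to 16.5% ± 1.68 (SD, n = 3), the TNPO1 share from 29.8% ± 1.56 to 39.0% ± 1.15 and the TNPO3 share from 35.7% ± 1.24 to 44.5% ± 1.49. TNPO1 has 3 annotated pseudogene copies, NUP35 has 2, and NXT1 and XPOT have 1 each. At least 100 exon bases are shared with another annotated gene on the same strand in NUP133, NUP188 and NUP98 and on the other strand in 9 members. IPO9, an importin for histones H2A and H2B, fell from 10.7, 11.2 and 10.5 FPKM to 8.69, 8.75 and 8.48 FPKM (log2 fold change -0.29 ± 0.06 SE, adjusted p = 0.000737), the smallest of the falls. Of the 12 import receptors on the role list, the other 8 had no row of their own, KPNB1 (importin beta) among them. IPO4 shares a row with TM9SF1, at 54.5 ± 1.24 and 38.5 ± 0.87 FPKM.

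Exportins differed most from each other. XPOT, the tRNA exporter, read 78.5, 75.1 and 76.9 FPKM with DMSO and 166, 80.6 and 167 FPKM with AI-10-49. Replicates 1 and 3 were more than 2-fold above DMSO, and replicate 2 lay just above the highest DMSO value. The log2 fold change was 0.76 ± 0.27 (SE, adjusted p = 0.0152), or 1.10 ± 0.06 (adjusted p = 3.42e-08) without replicate 2. XPOT lost its call when any DMSO library (adjusted p = 0.0536 to 0.0618) or AI-10-49 replicate 1 (adjusted p = 0.0576) was left out. Quantile normalization gave 1.24. In the order of levels it moved from place 3 in every DMSO library to place 1 in every AI-10-49 library, replicate 2 included, which puts it above RANBP1 in each.

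XPO5, which exports precursors of microRNAs, fell from 37.6, 38.8 and 36.2 FPKM to 15.4, 15.6 and 15.2 FPKM. The AI-10-49 libraries had an SD of 0.203 FPKM and lay 2.44-fold below DMSO (log2 fold change -1.23 ± 0.06 SE, adjusted p = 3.06e-09). The ratio of XPOT to XPO5 went from 2.09, 1.94 and 2.13 to 10.8, 5.18 and 11. In the GENCODE annotation the exons of XPO5 share 348 bases with POLR1C on the other strand, and POLR1C, a subunit of RNA polymerases I and III, fell as well, by 1.14 on the log2 scale, at 50.8 ± 1.21 with DMSO and 22.4 ± 0.331 FPKM with AI-10-49. Whether reads were assigned by strand is not given, and reads from that overlap cannot be told apart without it. XPO6, the exporter of actin, fell from 41.5, 40.5 and 42.1 FPKM to 30.2, 28.8 and 29.8 FPKM (-0.47 ± 0.07, adjusted p = 5.47e-05). XPO1, XPO4, XPO7 and RANBP17 had no row of their own.

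Both Ran cycle genes among the 29 fell. RANGAP1 makes Ran hydrolyse its GTP in the cytoplasm, and RANBP1 helps it to do so by taking Ran-GTP off the carriers. RANBP1, the most abundant of the 29 genes in every DMSO library, fell from 189, 189 and 209 FPKM to 96.3, 58.7 and 91.7 FPKM (log2 fold change -1.27 ± 0.27 SE, adjusted p = 0.000686). Without replicate 2 the change was -1.05 ± 0.07, and quantile normalization gave -0.74. Its exons share 393 bases with TRMT2A on the other strand, which stood at 30.9 ± 1.65 and 21.7 ± 1.25 FPKM. RANGAP1 fell from 57.9, 61.5 and 62.3 FPKM to 43.2, 38.3 and 42.2 FPKM (-0.55 ± 0.10, adjusted p = 0.000169), or by 0.32 on the log2 scale under quantile normalization.

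RANBP9 and RANBP10 bear Ran-binding names but are scaffold subunits of the CTLH ubiquitin ligase, and both rose. RANBP9 went from 27.8, 27.2 and 27.3 FPKM to 50.7, 39.8 and 52.9 FPKM (log2 fold change 0.77 ± 0.10 SE, adjusted p = 1.28e-05; 0.89 ± 0.06 without replicate 2). Its rise and that of XPOT (0.76 ± 0.27) were within error of each other, and without replicate 2 XPOT rose more. RANBP9 exons share 347 bases with NOL7 on the other strand. RANBP10, the lowest of the 29 genes with DMSO, went from 4.74, 4.99 and 4.99 FPKM to 8.04, 8.18 and 7.43 FPKM (0.59 ± 0.07, adjusted p = 5.17e-06). The folds on mean FPKM were alike, 1.74 and 1.61, at levels far apart.

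Both mRNA export genes among the 29 fell, and 10 of the 12 on that role list had no row of their own. NXT1, the small partner of the export receptor NXF1, fell from 54.8, 56.6 and 68.9 FPKM to 27.1, 23.2 and 25.9 FPKM (log2 fold change -1.21 ± 0.10 SE, adjusted p = 2.43e-07). DMSO replicate 3 was the highest value, and each AI-10-49 value was less than 0.5 times the lowest DMSO value. THOC3, of the THO complex that loads export factors on nascent mRNA, fell from 16.6, 15.3 and 19.6 FPKM to 9.43, 6.10 and 10.5 FPKM (-0.93 ± 0.14, adjusted p = 5.2e-05). It changed by -0.72 ± 0.09 without replicate 2.

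Of the 29 genes, 4 changed by at least 1 on the log2 scale, all downward: NUP210, RANBP1, XPO5 and NXT1. TNPO2 lay just short of 1 before rounding. Without AI-10-49 replicate 2 there were 6, of which 5 were lower, TNPO2 among them, and 1 was higher, XPOT (1.10). Under quantile normalization RANBP1 changed by -0.74. Of all tested rows, 13.4% passed with a change of that size, 5.79% upward and 7.62% downward. Spread between libraries was small with DMSO, where the SD exceeded 10% of the mean in 3 genes, against 9 genes with AI-10-49.

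Promoters of the genes were examined for letters bound by 3 families of factors. The windows were the RefSeq sequences (GRCh38.p14) from 250 bases before to 50 bases after the annotated start, and 26 of the 29 genes matched by symbol. KPNA4, KPNA5 and RANBP1 did not. On either strand, CACGTG, the E-box bound by MYC with MAX, occurred in 3 of the 26, which is 11.5%, against 8.77% of the 27305 genes with a window and 13.9% of the 4394 with a row in the expression table. All 3 were among the 17 falling genes with a window (KPNA3, NUP188 and TNPO2), and none of the 9 rising ones held it. TGTGGT, the RUNX core, occurred in NUP133, NUP93 and RANBP10 (11.5%, against 15.6% of all and 13.5% of genes with a row), in 2 of the 9 rising and 1 of the 17 falling genes, and the NRF1 palindrome, searched by its 10 letters without mismatch, in NUP107 (3.85%, against 1.52% of all and 2.91% of genes with a row). A gene was counted if any of its windows held the letters. In NUP93 the window at chr16:56783206-56783505 held the RUNX core, and its other windows did not. The E-box and the NRF1 letters read the same on both strands, and no motif contains another. These shares are descriptions of letters in short windows, not of binding. Shares among all rising and all falling rows were not taken, so the small counts by direction have no background and are not read further.

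The 3 windows with an E-box are shown, and whether the E-box bears on any change was not tested. Each is 5′ to 3′ along the gene, with CACGTG in capitals. KPNA3 lies at chr13:49792633-49792932 on the minus strand, with the E-box beginning 66 bases before the start. NUP188 lies at chr9:128947449-128947748 on the plus strand, with E-boxes beginning 77 and 30 bases before the start. TNPO2 lies at chr19:12723883-12724182 on the minus strand, with the E-box beginning 24 bases before that start, while a second TNPO2 window in the table has none.
KPNA3: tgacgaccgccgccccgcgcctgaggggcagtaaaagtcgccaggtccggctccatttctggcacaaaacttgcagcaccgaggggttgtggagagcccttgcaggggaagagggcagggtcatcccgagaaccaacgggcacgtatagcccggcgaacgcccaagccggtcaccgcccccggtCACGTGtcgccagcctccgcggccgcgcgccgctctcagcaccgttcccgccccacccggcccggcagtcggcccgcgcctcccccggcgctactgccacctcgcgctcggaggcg
NUP188: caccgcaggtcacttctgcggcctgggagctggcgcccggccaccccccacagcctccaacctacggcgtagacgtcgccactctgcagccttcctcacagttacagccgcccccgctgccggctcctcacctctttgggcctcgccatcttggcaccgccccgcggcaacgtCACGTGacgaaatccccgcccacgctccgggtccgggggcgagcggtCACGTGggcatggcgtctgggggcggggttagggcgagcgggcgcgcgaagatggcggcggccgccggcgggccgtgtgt
TNPO2: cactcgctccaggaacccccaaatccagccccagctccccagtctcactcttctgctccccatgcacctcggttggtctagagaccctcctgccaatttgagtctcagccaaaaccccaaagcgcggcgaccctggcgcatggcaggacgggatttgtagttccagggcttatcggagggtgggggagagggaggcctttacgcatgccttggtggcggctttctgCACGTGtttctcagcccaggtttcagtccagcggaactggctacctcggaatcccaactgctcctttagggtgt

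The genes are spread over 16 chromosomes. The closest members with opposite changes were NUP153 (-0.52) and RANBP9 (0.77) on chromosome 6, with 13 protein-coding genes between them in RefSeq order, and NUP107 (-0.40) and XPOT (0.76) on chromosome 12, with 20 between them.

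Other genes of the same processes were taken from a list of 58 symbols, which names some genes by both an older and a current symbol, and 30 had a tested row. Of these, 9 rose, 18 fell and 3 did not pass, with a median log2 fold change of -0.45. Of all tested rows 95.3% passed, 46.2% higher and 49.1% lower, with a median of -0.28. The counts by list below are to be read beside these shares. Without AI-10-49 replicate 2, 10 rose and 20 fell, where 97.4% of all rows passed. TMPO (-0.52) lost its call in 1 of the 15 alternatives, under quantile normalization. Among the 5 further pore genes, TMEM48, which encodes the membrane nucleoporin NDC1, fell from 32.0, 32.2 and 30.9 FPKM to 18.4, 18.5 and 19.5 FPKM (log2 fold change -0.73 ± 0.06 SE, adjusted p = 3.47e-07). NUP210, also of the membrane ring, fell more (-1.37). POM121, SEH1L and AHCTF1 fell too, while GLE1 rose.

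Of 9 genes of the Ran cycle and carriers, 4 rose, 3 fell and 2 did not pass. NUTF2, which carries Ran back into the nucleus, fell from 83.5, 75.9 and 85.3 FPKM to 45.1, 34.8 and 43.6 FPKM (log2 fold change -0.98 ± 0.12 SE, adjusted p = 9.58e-06). AKIRIN2, which brings proteasomes into the nucleus, rose from 26.9 ± 1.13 to 49.2 ± 7.25 FPKM (0.84 ± 0.10, adjusted p = 7.42e-06; 0.96 without replicate 2). RAN itself did not pass and is named here after its values were seen. It read 457, 450 and 518 FPKM with DMSO and 267, 96.5 and 260 FPKM with AI-10-49. All AI-10-49 values were below the DMSO values, but replicate 2 was 0.366 times the other AI-10-49 libraries, and the log2 fold change was -1.32 ± 0.90 (adjusted p = 0.168). Without that library it was -0.84 ± 0.09 (adjusted p = 7.12e-06). Over the 15 alternatives RAN lay between -1.57 and -0.40 and did not pass in 11. With replicate 2 kept it passed under quantile normalization and in the fit without the mean-variance trend, so its call depends on these settings.

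Of 6 further genes of mRNA export, 4 fell and 2 rose. ALYREF, the adaptor that hands mRNA to NXF1-NXT1, fell from 111 ± 8.80 to 51.3 ± 9.18 FPKM (-1.12 ± 0.16 on the log2 scale, adjusted p = 2.98e-05). The cap-binding gene NCBP2 and the helicase gene DDX39A fell by 0.65 and 0.57 on the log2 scale. Without replicate 2 they changed by -0.52 and -0.41, and over the 15 alternatives NCBP2 lay between -0.72 and -0.34 and DDX39A between -0.66 and -0.17, with no call lost. CHTOP rose (0.41, or 0.57 without replicate 2). DDX19B, a helicase that strips export factors at the cytoplasmic face, rose from 7.58 ± 0.345 to 14.2 ± 0.874 FPKM (0.83 ± 0.07, adjusted p = 1.93e-07). Its neighbour and near copy DDX19A fell (-0.50), and how reads shared between such copies were assigned is not known.

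Of 10 genes of the nuclear envelope and lamina, 7 fell, 2 rose and 1 did not pass. The B-type lamin genes LMNB2 and LMNB1 fell, LMNB2 from 56.3 ± 2.91 to 24.4 ± 0.45 FPKM (SD, n = 3) and LMNB1 from 118 ± 0.858 to 65.9 ± 14.4 FPKM (log2 fold changes -1.17 and -0.85, adjusted p = 2.93e-08 and 0.000914), and LMNB1 changed by -0.66 without replicate 2 and by -0.95 to -0.45 over the alternatives. The inner membrane genes SUN2 and SUN1 changed by -0.71 and -0.59, and over the 15 alternatives SUN2 lay between -0.78 and -0.36. LBR, another inner membrane gene, changed by -0.54 (adjusted p = 0.0205), or by -0.33 without replicate 2. Over the alternatives LBR lay between -0.67 and -0.09, and its call was lost in 5 of 15 (adjusted p up to 0.138): without DMSO replicate 1, 2 or 3, and under quantile normalization with or without AI-10-49 replicate 2. LMNA, the A-type lamin gene, rose from 9.20 ± 0.742 to 11.9 ± 0.645 FPKM (0.34), opposite to the B-type genes, and EMD rose by 0.26.

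**Figure D5:**
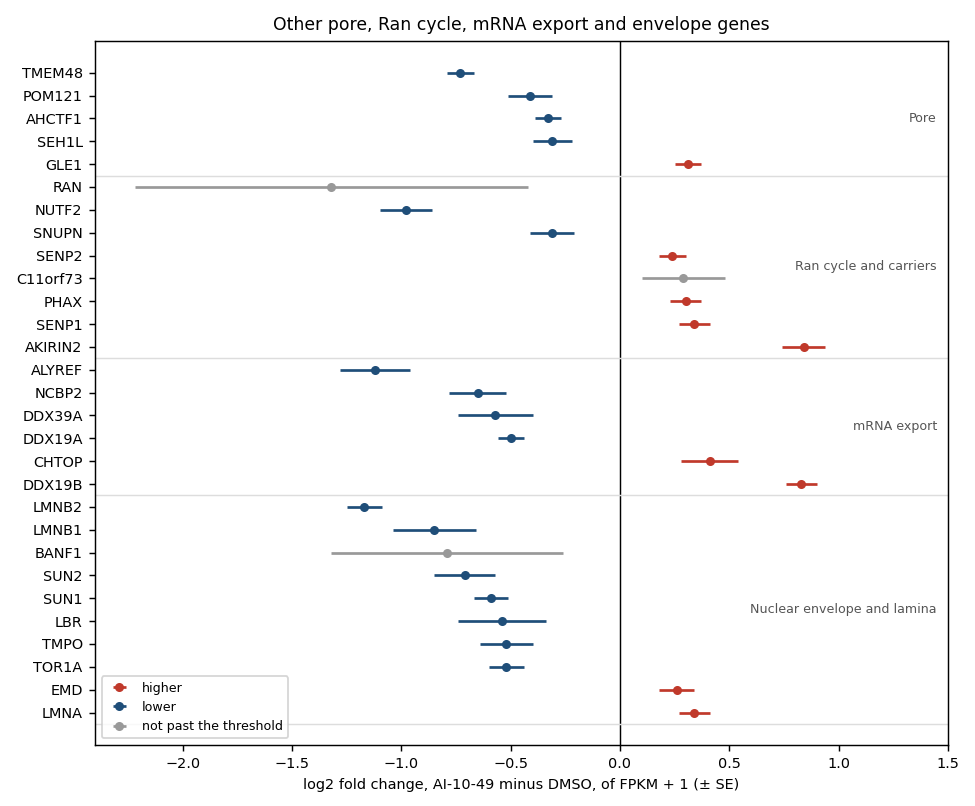
Log2 fold change (horizontal axis, AI-10-49 minus DMSO, FPKM + 1, bars ± SE) of 29 of the 30 further pore, carrier, mRNA export and envelope genes, with genes that rose in red, fell in blue or did not pass in grey. LMNB2 (-1.17), ALYREF (-1.12) and NUTF2 (-0.98) are the largest falls that passed, and RAN (-1.32) has the widest error.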

How the data were processed

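ME-1 RNA was sequenced as 90 bp paired-end reads. Bowtie2 2.1.0, Cufflinks 2.2.0, Cuffdiff and build hg19 are listed in the submitters' processing notes. Annotation, strand setting and the rule that chose the rows are not given in the sources used here. The deposited values are FPKM computed by the authors, 1 column per library.

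For each row log2(FPKM + 1) was fitted with limma 3.58.1 in R 4.3.3 (mean-variance trend, two-sided, threshold 0.05 after Benjamini-Hochberg adjustment over all tested rows). Fold changes on this scale understate low genes. Because rows were selected, p-values describe this table only. Depth is unknown: ratios between libraries lay within 0.5% of ratios of small whole numbers in 23.8% to 34.1% of 126 rows of low FPKM, against 26.7% to 31.4% of 2469 rows of 5 to 20 FPKM, so reads could not be recovered.

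Members and lists were chosen with earlier results of these data known. Every member could be named, and of the other genes the 12 largest changes past the threshold. RAN, TMPO, GLE1, POM121, SEH1L, AHCTF1, CHTOP, DDX19A, LMNA and EMD fall outside that rule and were named after their values were seen. In the list of other genes 1 gene is counted but not reported here. The fit was tested on simulated data. Alternatives covered pseudocounts, filters, scaling, a replicate block, the trend, thresholds and each library left out. Promoters (RefSeq) and exon overlaps (GENCODE v29) are on GRCh38, not the authors' build.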

Additional observations from a re-analysis of the deposited data

How the results depend on the processing

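The counts of 11 members higher and 18 lower did not change with the smaller pseudocounts, without a filter, with a 5 FPKM filter, with median scaling, without the trend, with the replicate block, or with quantile normalization, also when AI-10-49 replicate 2 was dropped from it. When single libraries were left out, 10 to 11 members were higher, 18 lower, and 5730 to 6067 rows passed in the whole table, against 5939 with all libraries. A threshold of 0.01 left 10 higher and 18 lower. A minimum log2 fold change of 1, which takes out small changes by construction, left 836 rows, with 0 members higher and 4 lower. Of 435 values (29 members under 15 alternatives) none changed sign and 4 lost the call, all in XPOT when DMSO replicate 1, 2 or 3 or AI-10-49 replicate 1 was left out (log2 fold changes 0.77, 0.74, 0.76 and 0.59). The replicate block gave 6015 rows, and 11 members higher and 18 lower. Deviations of same-numbered libraries correlated across rows with r of -0.15, 0.147 and 0.247, and those of different-numbered ones with r from -0.254 to 0.205. The labels call the libraries independent experiments, and the numbers were not taken as pairs. Under quantile normalization the members had a median change of -0.34 (-0.43 before) and the tested rows together -0.06 (-0.28 before). Beside KPNA2, RANBP1, RANGAP1 and XPOT, no member moved by over 1.5 times under any of these settings. With depth unknown, errors come from library spread only. Each limma SE mixes the gene's own spread with that of rows of like level, so it is not the gene's replicate spread alone.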
